A study of Mus musculus with 18 samples.

Results

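The genes of the potassium channels were followed in the lateral septum (LS) of female mice. They were taken as every gene whose symbol begins with Kcn and that had a microarray probeset annotated to it alone, with Kcnj13, Kcne2 and Kcnj8 left out, and each gene was represented by its brightest probeset over 18 arrays. This gave 89 genes of the 19938 genes with a probeset of their own. Of these, 86 encode channel subunits or proteins of the Kcn auxiliary groups, and 3 (Kcnmb4os1, Kcnmb4os2 and Kcnd3os) are non-coding antisense transcripts, which are described apart. The 86 comprised 15 Kcna, Kcnb, Kcnc and Kcnd genes, 7 Kcnh genes, 10 genes of the Kcnf, Kcng, Kcns and Kcnv modifier groups, 3 Kcnq genes, 13 Kcnj genes, 14 Kcnk genes, 8 genes of the Kcnn, Kcnma, Kcnt and Kcnu groups, and 16 auxiliary genes. Kcn genes outside this set were not analysed here.

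Outbred hsd:ICR mice of about 70 days of age formed 3 groups with 6 arrays each and 1 mouse per array. Lactating maternal mice were dissected on postpartum Day 7 with a litter standardized to 11 pups. Pups removed mice had given birth in the same way, and their litters were also standardized to 11 pups. These mice lost contact with their pups on postpartum Day 2, and all were diestrous at dissection. Virgin mice were age-matched, had been housed with other females in place of a breeder male, and were diestrous. The LS was microdissected, so every value is a mean over all cells of the dissected tissue, and fewer cells of a type cannot be told apart from less RNA per cell. Values are log2 PLIER signals, in which a difference of 1 is a doubling, and they are compared between groups for 1 gene at a time because brightness differs between probesets.

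Potassium channels let potassium leave the cell and so set the resting potential, end the action potential and fix the spacing of spikes. Voltage-gated channels open on depolarization, inward rectifiers conduct best near rest and include the G protein-gated channels that carry much of the slow inhibition of neurons, and 2-pore channels carry a background leak. Calcium-activated and sodium-activated channels follow activity, while auxiliary subunits adjust the gating and the surface level of the pore-forming subunits.

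The tissue carried the RNA of LS neurons in every group. The mean log2 signal of 14 LS markers was 10.763 in virgin mice, 10.719 in maternal mice and 10.722 in pups removed mice. Sst was the brightest, and none of the 14 was called in maternal against virgin, with 4 higher and 10 lower. Single markers had an unadjusted limma p under 0.05 in both directions. Trpc4 differed by 0.168 log2 units, and Meis2, Cd24a and Sst by −0.177, −0.372 and −0.118. Meis2 is also among the most significant genes that the study listed. Markers of striatal medium spiny neurons, which lie beside the LS across the lateral ventricle, were also present and differed between groups. Over 22 such markers the mean per array ran from 9.825 to 10.051 in virgin mice, from 9.17 to 9.719 in maternal mice and from 9.385 to 10.166 in pups removed mice. All 22 were lower in maternal than in virgin mice and 8 were called, beside 1.65% of all probesets. The list was chosen with earlier results of these data known, so these counts are no independent evidence. Bcl11b, Rxrg, Rarb, Serpina9 and Spata13, among the 8, are also among the most significant genes that the study listed. The lowest means belonged to maternal replicate 4 (9.17) and pups removed replicate 4 (9.385). All 8 choroid plexus markers (8.572 in maternal and 9.131 in virgin mice) and all 6 ependymal markers (8.248 and 8.514) were also lower in maternal than in virgin mice, with 0 called. The part of these cells in the results below was not tested, and values without each of the arrays named above are given where a call rests on them.

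Of the 89 genes, 5 were called in maternal against virgin mice, that is, they had an adjusted p under 0.25 in a limma fit of all 35557 probesets. Kcnt2 was higher in maternal mice, and Kcnj4, Kcne1l, Kcnd2 and Kcnip3 were lower. Their promoters are shown so that the sequence upstream of each of the 5 genes can be compared. The sequences are from RefSeq on build GRCm38.p6 and run 5′ to 3′ on the strand of the gene, from 250 bases before to 50 bases after the start. Capitals mark matches on either strand to the GC box GGGCGG, the CCAAT box CCAAT and the core of the cyclic AMP response element TGACG.
Kcnt2, chr1:140245468-140245767, plus strand: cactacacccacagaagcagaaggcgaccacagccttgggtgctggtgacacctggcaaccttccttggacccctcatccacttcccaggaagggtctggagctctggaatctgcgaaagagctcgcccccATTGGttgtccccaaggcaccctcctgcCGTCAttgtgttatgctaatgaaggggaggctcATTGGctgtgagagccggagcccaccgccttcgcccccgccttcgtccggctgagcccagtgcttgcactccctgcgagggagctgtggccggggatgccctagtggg
Kcnj4, chr15:79505192-79505491, minus strand: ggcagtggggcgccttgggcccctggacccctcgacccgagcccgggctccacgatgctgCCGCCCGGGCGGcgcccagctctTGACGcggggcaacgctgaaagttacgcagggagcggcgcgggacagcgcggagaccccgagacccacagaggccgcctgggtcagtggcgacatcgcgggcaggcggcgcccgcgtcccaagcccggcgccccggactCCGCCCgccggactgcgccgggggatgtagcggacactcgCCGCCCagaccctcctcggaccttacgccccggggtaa
Kcne1l, chrX:142306149-142306448, minus strand: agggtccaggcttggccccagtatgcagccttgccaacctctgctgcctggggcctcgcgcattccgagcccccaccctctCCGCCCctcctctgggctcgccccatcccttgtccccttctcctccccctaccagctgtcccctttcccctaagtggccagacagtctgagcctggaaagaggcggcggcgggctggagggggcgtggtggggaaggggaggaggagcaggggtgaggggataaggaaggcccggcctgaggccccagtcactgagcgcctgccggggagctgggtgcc
Kcnd2, chr6:21215096-21215395, plus strand: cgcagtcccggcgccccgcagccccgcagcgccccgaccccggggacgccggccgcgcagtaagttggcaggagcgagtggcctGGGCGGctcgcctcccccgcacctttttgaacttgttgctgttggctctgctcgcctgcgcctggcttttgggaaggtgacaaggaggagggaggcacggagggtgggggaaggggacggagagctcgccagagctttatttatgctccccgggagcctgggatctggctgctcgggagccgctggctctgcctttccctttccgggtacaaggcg
Kcnip3, chr2:127522045-127522344, minus strand, the first of 3 starts listed: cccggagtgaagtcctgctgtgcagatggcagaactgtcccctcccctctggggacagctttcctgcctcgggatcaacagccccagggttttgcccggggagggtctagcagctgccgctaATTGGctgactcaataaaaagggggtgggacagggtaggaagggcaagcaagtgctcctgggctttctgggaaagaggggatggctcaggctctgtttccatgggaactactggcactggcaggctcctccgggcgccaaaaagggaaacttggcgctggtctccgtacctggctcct

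The 5 promoters did not share a motif. The GC box was matched 4 times in Kcnj4, once each in Kcnd2 and Kcne1l, and not in Kcnt2 or Kcnip3. The CCAAT box was matched 2 times in Kcnt2 and once in Kcnip3, and the core TGACG once each in Kcnt2 and Kcnj4. None of the 5 held TATAAA or the full element TGACGTCA, within which the core lies, and Kcnip3 alone held TTCNNNGAA, the general form of a STAT site. For scale, of 27025 genes with a promoter of this length, 35.9% held the GC box, 37.9% the CCAAT box, 21.0% the core, 14.2% TATAAA, 1.88% TGACGTCA and 8.47% TTCNNNGAA. Of the 67 members matched to the promoter table by symbol, 35 (52.2%) held the GC box, 21 (31.3%) the CCAAT box, 14 (20.9%) the core, 2 (2.99%) TATAAA, 0 TGACGTCA and 7 (10.4%) TTCNNNGAA. The median GC content was 60.3% over the members' promoters and 52.7% over all. These are letter matches in a fixed window and say nothing of binding.

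The comparison of maternal with virgin mice asks how the LS of a lactating female differs from that of a female that has not reproduced. The inward rectifiers held the largest called difference among the members. Kcnj4 (probeset 10430533), a strong inward rectifier of the Kir type that holds the membrane near rest, had virgin values of 8.87 at the lowest, 8.94 at the median and 9.09 at the highest. In maternal mice these were 8.23, 8.60 and 8.73, and in pups removed mice 8.50, 8.775 and 9.19. Every maternal array lay below every virgin array, and the pups removed arrays spanned both groups. With virgin mice as the baseline Kcnj4 fell by 0.40 log2 units (SE 0.10, fold 0.757, limma adjusted p = 0.185). Kcnj2, the closely related inward rectifier, had a log2 difference of −0.31 (SE 0.12) with a limma adjusted p of 0.381 and was not called.

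None of the other Kcnj genes was called. Kcnj16, which pairs with Kcnj10 in glia and epithelia, and Kcnj14 had log2 differences of −0.168 (SE 0.146) and −0.130 (SE 0.121), with wide errors. Kcnj6, a G protein-gated channel subunit, had a log2 difference of 0.16 (SE 0.057, limma adjusted p = 0.328), with maternal arrays from 8.45 to 8.67 and virgin arrays from 8.22 to 8.50. Its partner subunits Kcnj3, Kcnj5 and Kcnj9 had log2 differences of 0.052, 0.020 and 0.025. Kcnj11, the pore of the ATP-sensitive channel, and Kcnj12, a rectifier close to Kcnj2 and Kcnj4, had the smallest standard errors of the uncalled Kcnj genes, with log2 differences of −0.027 (SE 0.048) and −0.010 (SE 0.042). Kcnj10, the main inward rectifier of astrocytes, had virgin and maternal means that were equal to the precision of the fit (SE 0.049), and 10 astrocyte markers had means of 10.31 in virgin and 10.322 in maternal mice. Over all 13 Kcnj genes the median log2 difference was −0.008, 5 were higher and 7 lower, and 3 had an unadjusted p under 0.05.

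Kcnd2 and Kcnip3, which encode a pore-forming subunit and a calcium-binding partner of the A-type channels that delay firing in dendrites, were both lower in maternal than in virgin mice. Kcnd2 (probeset 10536611) had values of 11.02, 11.045 and 11.13 in virgin mice (lowest, median and highest). Maternal mice had 10.80, 10.89 and 10.97, and pups removed mice 10.87, 10.965 and 11.14. The maternal and virgin arrays did not overlap, and pups removed replicates 5 and 6, at 11.14 and 11.12, stood near the top of the virgin range or above it. Kcnd2 fell by 0.17 on the log2 scale (SE 0.046, fold 0.892, limma adjusted p = 0.212). Kcnip3 (probeset 10487392), also known as calsenilin, had virgin values of 10.91, 10.99 and 11.19, maternal values of 10.69, 10.85 and 10.91, and pups removed values of 10.84, 10.98 and 11.12. The virgin and maternal ranges met at 10.91, and Kcnip3 fell by 0.19 (SE 0.056, fold 0.878, limma adjusted p = 0.241).

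The other A-type genes were not called. The pore-forming Kcnd1 and Kcnd3 had log2 differences of −0.070 (SE 0.033) and 0.083 (SE 0.043), and the KChIP genes Kcnip1, Kcnip2 and Kcnip4 had −0.033, −0.098 and 0.012. Dpp6 and Dpp10, the transmembrane partners of these channels, had limma adjusted p-values of 0.923 and 0.951. Kcna4, an A-type channel of the Shaker group that sits in axons, had virgin arrays from 9.04 to 9.22 with a median of 9.13 and maternal arrays from 8.76 to 9.01 with a median of 8.95. These ranges did not overlap, but the spread was wide in pups removed mice (8.85 to 9.47), and the log2 difference of −0.22 (SE 0.093) had a limma adjusted p of 0.416.

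Among the remaining voltage-gated genes the differences ran in both directions. Kcna6, a delayed rectifier of the Shaker group, had maternal arrays from 9.21 to 9.34 and virgin arrays from 9.05 to 9.14. No maternal array overlapped a virgin array, and the log2 difference of 0.17 (SE 0.052) had a limma adjusted p of 0.256, just past the threshold. Kcnc1, which supports fast spiking, and Kcna7 had log2 differences of 0.125 (SE 0.050) and 0.095 (SE 0.044), with limma adjusted p-values of 0.387 and 0.464. Kcna1, the founding Shaker gene, had one of the smallest standard errors and a log2 difference of −0.047 (SE 0.033). Over the 15 Kcna to Kcnd genes 9 were higher and 6 lower, 6 had an unadjusted p under 0.05 (3 in each direction), and 1 was called.

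The ether-a-go-go genes gave no call, and 4 of 7 had an unadjusted p under 0.05. Kcnh3, a forebrain channel of the ELK group, had virgin arrays from 8.80 to 9.22 with a median of 9.00 and maternal arrays from 8.55 to 8.87 with a median of 8.785. The ranges overlapped slightly, and the log2 difference was −0.28 (SE 0.089, limma adjusted p = 0.265). Kcnh1, the EAG channel, had a log2 difference of −0.15 (SE 0.054, limma adjusted p = 0.315), and Kcnh4, of the ELK group, had −0.14 (SE 0.066, limma adjusted p = 0.473). Kcnh7, of the ERG group, had 0.145 (SE 0.060, limma adjusted p = 0.416). Its relative Kcnh2 and the EAG gene Kcnh5 had 0.033 and 0.010.

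The modifier genes encode subunits that form no channel alone and retune the Kcnb channels, and none of the 10 was called. Kcnv1 had virgin arrays from 9.11 to 9.38 and maternal arrays from 8.76 to 9.16, with a log2 difference of −0.26 (SE 0.087, limma adjusted p = 0.296). Kcns2 had −0.18 (SE 0.064, limma adjusted p = 0.328), and Kcng3 had −0.19 (SE 0.084, limma adjusted p = 0.455). Kcng2, with a small standard error, had −0.003 (SE 0.049), and Kcnb2, the Kcnb gene measured here, had 0.003 (SE 0.052). The 3 Kcnq genes, whose products carry the M-current that damps repetitive firing, had log2 differences of −0.008 (Kcnq1, SE 0.067), −0.093 (Kcnq3, SE 0.047) and −0.122 (Kcnq5, SE 0.067), and 0 had an unadjusted p under 0.05.

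Kcnt2 was the one member called higher in maternal mice. It encodes Slick, a sodium-activated channel that opens as sodium enters during activity. Kcnt2 (probeset 10350438) had virgin values of 9.35, 9.435 and 9.50 (lowest, median and highest), maternal values of 9.54, 9.645 and 9.71, and pups removed values of 9.37, 9.48 and 9.66. Every maternal array stood above every virgin array, and pups removed replicates 1 and 4 lay within the maternal range. Kcnt2 rose by 0.20 on the log2 scale (SE 0.048, fold 1.147, limma adjusted p = 0.160). The related sodium-activated channel Kcnt1 (Slack) had a log2 difference of 0.010 (SE 0.049), and the big-conductance calcium-activated channel Kcnma1 had −0.020 (SE 0.050). The small-conductance genes Kcnn1, Kcnn2 and Kcnn3, which shape the afterhyperpolarization, had −0.005 (SE 0.040), 0.038 (SE 0.043) and 0.037 (SE 0.038).

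The 2-pore leak channels held no called gene. Kcnk9 (TASK type) had virgin arrays from 9.44 to 9.75 and maternal arrays from 9.60 to 9.98, with a log2 difference of 0.22 (SE 0.087, limma adjusted p = 0.388). Kcnk6 (TWIK type) had 0.14 (SE 0.054, limma adjusted p = 0.353). The TREK gene Kcnk2 had −0.095 (SE 0.048), and the other 11 lay between −0.103 and 0.058. Of the 14 genes 9 were higher, 5 lower and 2 had an unadjusted p under 0.05.

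In the auxiliary genes 12 of 16 were lower in maternal mice and 2 were called, Kcnip3 (above) and Kcne1l. Kcne1l (probeset 10607085), also named Kcne5, is an X-linked single-pass subunit of the Kcne group that modulates voltage-gated channels. It had virgin values of 8.03, 8.14 and 8.42 (lowest, median and highest), maternal values of 7.87, 7.91 and 8.09, and pups removed values of 8.04, 8.155 and 8.33. Maternal replicate 1, at 8.09, was the one maternal array inside the virgin range, and the pups removed arrays lay within the virgin range. Kcne1l fell by 0.235 on the log2 scale (SE 0.062, fold 0.85, limma adjusted p = 0.190). Kcnab1, a cytoplasmic beta subunit of the Kcna channels, had −0.19 (SE 0.068, limma adjusted p = 0.323), while its relatives Kcnab2 and Kcnab3 had −0.013 (SE 0.050) and 0.18 (SE 0.097).

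Kcnmb1, the beta subunit of the big-conductance channel in vascular smooth muscle, had the most negative log2 difference of all members and the widest error. Its arrays ran from 7.93 to 8.64 in virgin mice, from 7.40 to 8.07 in maternal mice and from 7.74 to 8.79 in pups removed mice. The log2 difference was −0.46 (SE 0.19) with a limma adjusted p of 0.407. The mean of 7 mural cell markers was 8.67 in virgin mice, 8.615 in maternal mice and 8.737 in pups removed mice, and its part in this value was not tested. The spans of Kcnmb1 and Kcnip1 overlap in GRCm38.p6. Strands and exons were not compared, and whether the Kcnmb1 signal includes RNA of Kcnip1 was not tested. Kcnmb3, a related beta subunit, had 0.053 (SE 0.051). The 3 antisense transcripts had log2 differences of −0.028 (Kcnmb4os2, SE 0.048), −0.015 (Kcnd3os, SE 0.060) and 0.043 (Kcnmb4os1, SE 0.070).

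**Figure D1:**
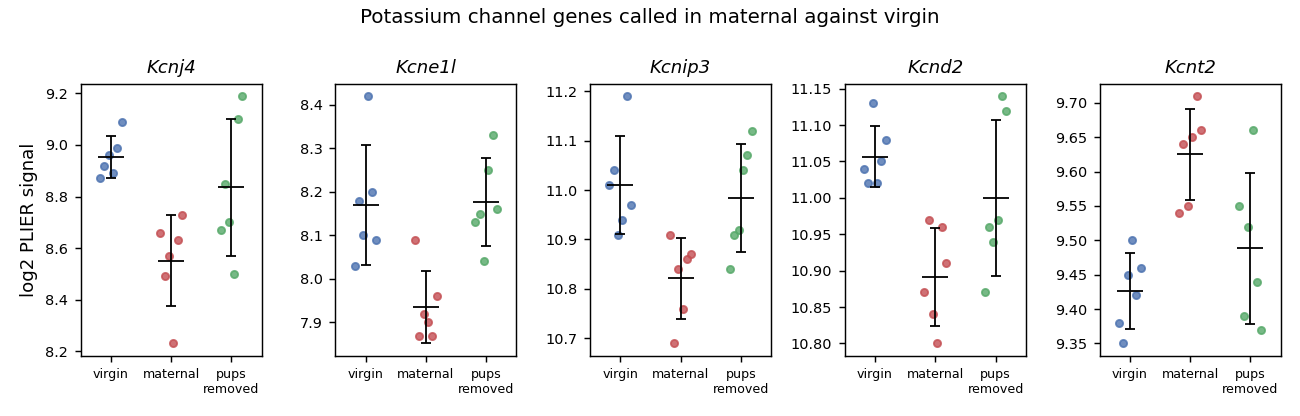
Log2 PLIER signal (y axis, a separate range for each gene) of the 5 called genes in virgin, maternal and pups removed mice. Each point is 1 array and the black bars give the mean and SD of 6 arrays. Maternal and virgin points are apart for Kcnj4, Kcnd2 and Kcnt2, meet at 10.91 for Kcnip3, and overlap by 1 maternal array at 8.09 for Kcne1l.

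**Figure D2:**
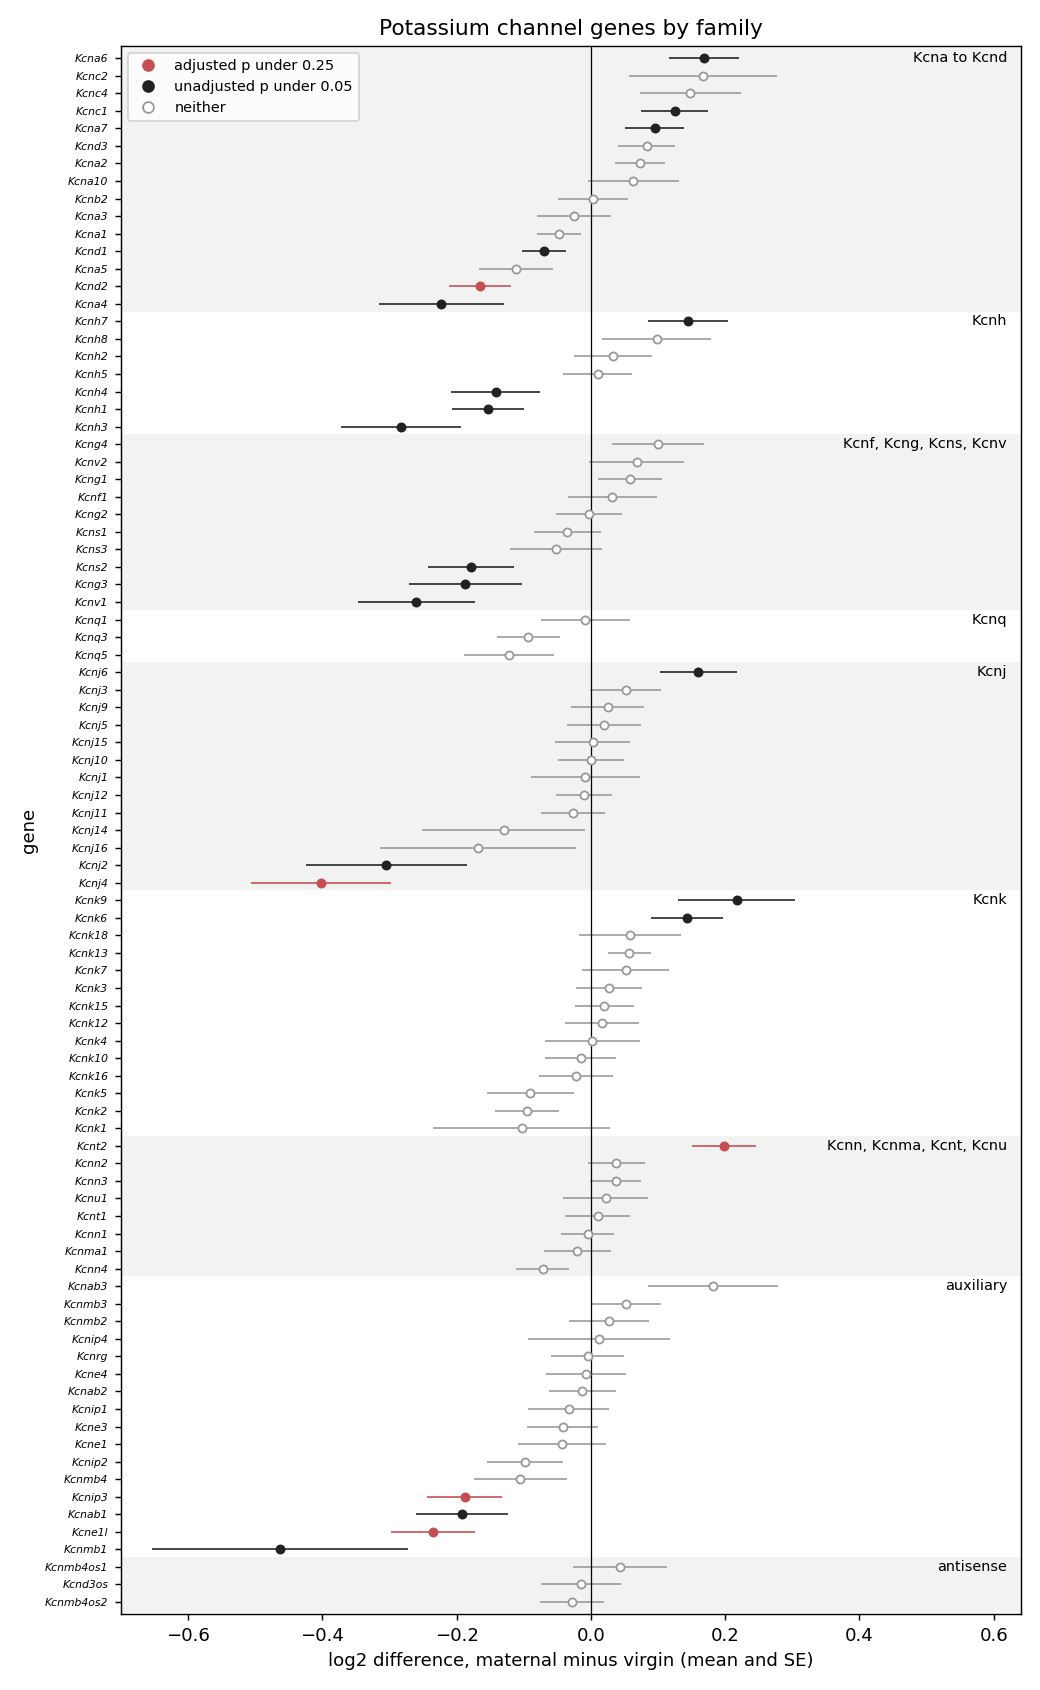
Log2 difference of maternal minus virgin mice (x axis) for each of the 89 genes (y axis), ordered within each family, with the SE of the limma fit as a bar. Red points were called, black points had only an unadjusted p under 0.05 and open points had neither. Values run from −0.46 (Kcnmb1) to 0.22 (Kcnk9), and most open points lie within 0.1 of 0.

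The 5 calls among 89 genes are 5.62%. Over all 35557 probesets 1.65% were called (0.832% higher and 0.813% lower), and 1.49% of the 21789 probesets that name 1 gene. An unadjusted p under 0.05 was reached by 23 members (25.8%), 8 higher and 15 lower, beside 10.4% of all probesets (5.80% higher and 4.62% lower) and 9.96% of those that name 1 gene. The maternal and virgin arrays did not overlap in 5 members (Kcna4, Kcna6, Kcnd2, Kcnj4 and Kcnt2), beside 0.835% of all probesets. The median log2 difference was −0.005 over the members, 41 were higher and 47 lower, and the median size without sign was 0.058 beside 0.043 over single-gene probesets.

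The number of calls moved with single arrays. It was 0 without virgin replicate 2, maternal replicate 4 or maternal replicate 5, 1 without maternal replicate 6, and 2 without virgin replicate 3, 4 or 5 or maternal replicate 2 or 3. It was 9 without virgin replicate 6 or pups removed replicate 4, and 8 without pups removed replicate 6. The share of all probesets called without each of these arrays is not given here, so these counts of members cannot be set beside it. Without maternal replicate 4, the array with the lowest striatal mean, the log2 difference of Kcnj4 was −0.337 (limma adjusted p = 0.336) and that of Kcnt2 was 0.193 (limma adjusted p = 0.289). Those of Kcne1l, Kcnd2 and Kcnip3 were then −0.228, −0.147 and −0.176, with limma adjusted p-values of 0.336, 0.383 and 0.408.

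The called genes were set against the striatal markers array by array. With the mean of each group subtracted, Kcnj4 had a Pearson r of 0.85 and a Spearman rho of 0.719 with the mean of the 22 striatal markers over 18 arrays. The permutation p-values were 0.00056 and 0.0073, or 0.0028 and 0.0306 after adjustment over the 5 called genes. Kcnt2 ran the opposite way, with r = −0.709 (permutation p = 0.00935, adjusted 0.0234) and rho = −0.678 (permutation p = 0.0122, adjusted 0.0306). Kcnd2 (r = 0.586, adjusted permutation p = 0.103), Kcnip3 (r = 0.356, adjusted permutation p = 0.232) and Kcne1l (r = 0.29, adjusted permutation p = 0.232) did not pass 0.05. Without maternal replicate 4 and pups removed replicate 4, r was 0.702 for Kcnj4, −0.602 for Kcnt2, 0.562 for Kcnip3 and 0.542 for Kcne1l, each with an adjusted permutation p of 0.0735, and 0.58 for Kcnd2 (adjusted permutation p = 0.144). None of the 5 passed 0.05 after adjustment without those arrays. The unadjusted permutation p-values were then 0.0237 for Kcne1l, 0.0368 for Kcnt2, 0.0578 for Kcnip3, 0.0588 for Kcnj4 and 0.144 for Kcnd2. Leaving those arrays out also cut the number of arrays to 16 and narrowed the range of the marker mean. Whether the correlations rest on those arrays therefore cannot be told from these values. Within the groups of 6 arrays the r of Kcnj4 was −0.101 in virgin mice, 0.821 in maternal mice and 0.951 in pups removed mice, and that of Kcnt2 was 0.405, −0.568 and −0.947. The difference in r between groups was not tested. Whether the marker level plays a part in the maternal differences was not tested.

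**Figure D3:**
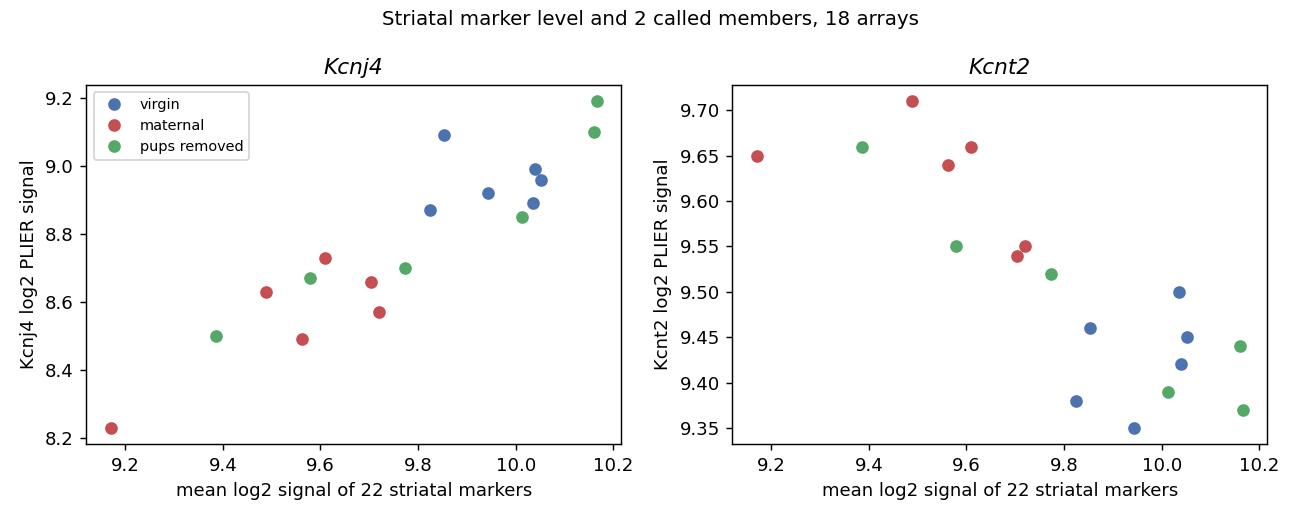
Log2 PLIER signal of Kcnj4 (left, y axis) and Kcnt2 (right, y axis) against the mean log2 signal of 22 striatal markers (x axis), 1 point per array and 1 colour per group. Kcnj4 is highest in the pups removed arrays with marker means of 10.161 and 10.166 and lowest in maternal replicate 4, at a marker mean of 9.17, while Kcnt2 slopes the other way.

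Maternal against pups removed mice asks what differs when pups stay to Day 7 rather than leave on Day 2. Contact with pups and nursing differ together between these groups and cannot be told apart. None of the 89 genes was called, beside 0.0309% of all probesets, and the smallest limma adjusted p was 0.310, for Kcne1l. An unadjusted p under 0.05 was reached by 16 members (18.0%), 5 higher and 11 lower in maternal mice, beside 8.96% of all probesets (3.33% higher and 5.63% lower). No member had groups that did not overlap, beside 0.529% of all probesets. The median log2 difference was 0.017 over the members and −0.007 over single-gene probesets.

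The called genes of the first comparison had these values in the second. Kcne1l had a log2 difference of −0.24 (SE 0.062), Kcnj4 −0.28 (SE 0.10, limma adjusted p = 0.454), Kcnip3 −0.16 (SE 0.056, limma adjusted p = 0.429), Kcnd2 −0.11 (SE 0.046, limma adjusted p = 0.519) and Kcnt2 0.14 (SE 0.048, limma adjusted p = 0.433). Both comparisons use the same maternal arrays and so are not independent. Of the other members with an unadjusted p under 0.05, those lower in maternal mice were Kcnmb1 at −0.55 (SE 0.19), Kcnh3 at −0.27 (SE 0.089), Kcna4 at −0.25 (SE 0.093), Kcnv1 at −0.21 (SE 0.087), Kcns2 at −0.145 (SE 0.064), Kcnk2 at −0.118 (SE 0.048) and Kcnd1 at −0.077 (SE 0.033). Those higher were Kcnk18, the TRESK leak channel, at 0.175 (SE 0.076, in a low signal with a mean of 6.734 over 18 arrays), Kcnk6 at 0.17 (SE 0.054), the modifier Kcng1 at 0.117 (SE 0.048) and Kcnk13, the THIK leak channel of microglia and neurons, at 0.075 (SE 0.032). The limma adjusted p-values of these 11 ran upward from 0.396, that of Kcnk6. The means of 9 microglia markers were 8.315 in maternal and 8.344 in pups removed mice.

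Without pups removed replicate 4, whose striatal mean of 9.385 was the lowest of its group, 8 members were called. Lower in maternal mice were Kcnmb1, with a log2 difference of −0.641, Kcnj4 with −0.35, Kcnh3 with −0.319, Kcna4 with −0.309 and Kcne1l with −0.227. Higher were Kcnk6 with 0.202, Kcnt2 with 0.171 and Kcna6 with 0.154. Their limma adjusted p-values ran from 0.181 (Kcna6) to 0.237 (Kcnmb1). Without maternal replicate 1, Kcne1l alone was called. The other 16 arrays left out singly gave 0 calls each, and array quality weights gave 5 (Kcne1l, Kcnh3, Kcnk6, Kcnmb1 and Kcnt2). The shares of all probesets called under these settings are not given here, so these counts of members cannot be set beside them.

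**Figure D4:**
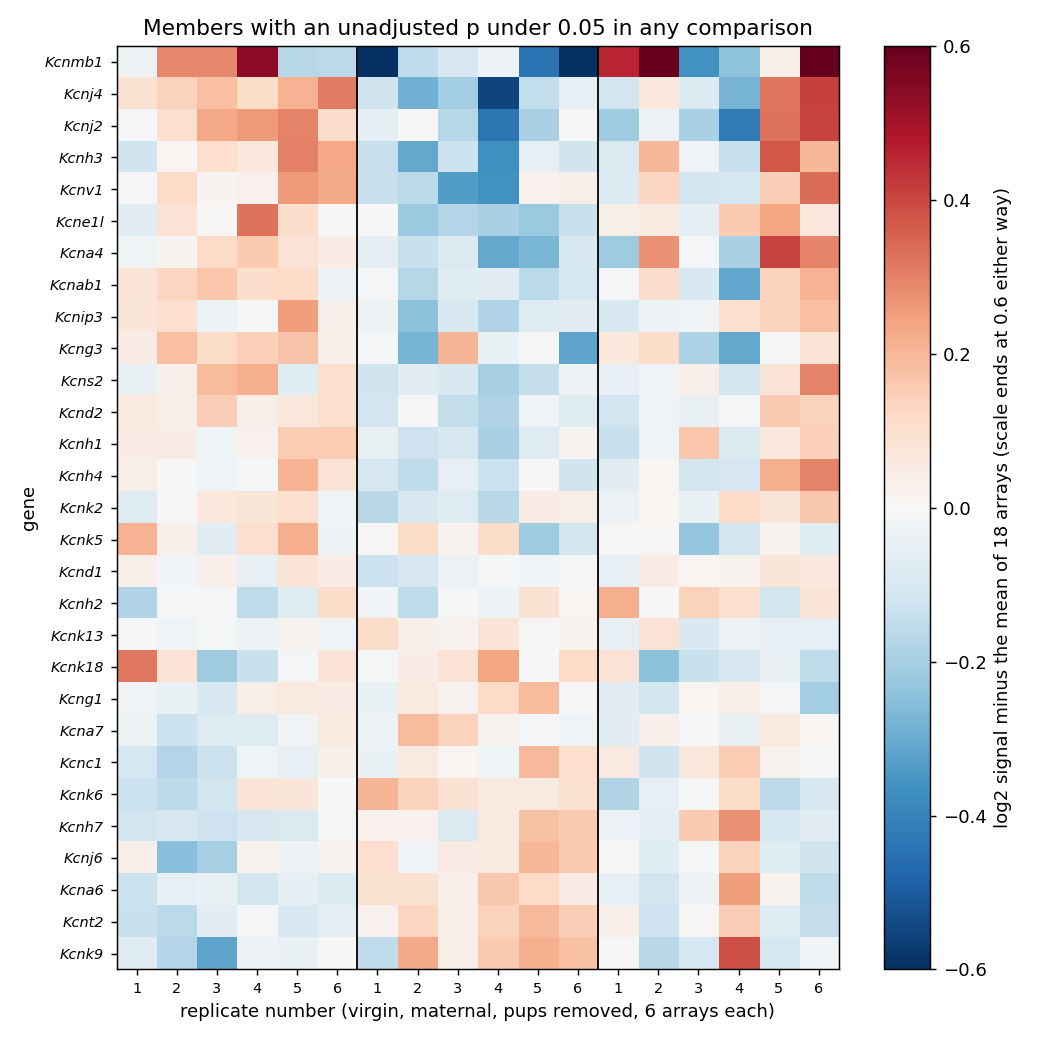
Log2 signal minus the mean of 18 arrays (colour, cut at 0.6 either way) for the 29 members with an unadjusted p under 0.05 in any comparison (y axis, ordered by the maternal minus virgin difference) in each array (x axis, 6 virgin, then 6 maternal, then 6 pups removed). The maternal arrays are mostly blue in the upper part and red in the lower part, and for Kcnj4 and Kcnj2 pups removed replicates 5 and 6 are red while replicate 4 is blue.

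Pups removed against virgin mice asks what remains of the reproductive state without pups. None of the 89 genes was called, beside 0.208% of all probesets, and the smallest limma adjusted p was 0.597. Kcnk5, a TASK-type leak channel, and Kcnh2, of the ERG group, were the 2 members (2.25%) with an unadjusted p under 0.05, beside 8.13% of all probesets. Kcnk5 had a log2 difference of −0.14 (SE 0.065), with arrays from 6.34 to 6.62 in virgin and from 6.17 to 6.42 in pups removed mice. Kcnh2 had 0.123 (SE 0.058), with arrays from 9.09 to 9.38 and from 9.16 to 9.49. No member had groups that did not overlap, beside 0.380% of all probesets, and the count of calls stayed at 0 with each array left out in turn. The 5 genes called above had log2 differences of −0.118 (Kcnj4, SE 0.10), −0.057 (Kcnd2, SE 0.046), −0.027 (Kcnip3, SE 0.056), 0.007 (Kcne1l, SE 0.062) and 0.062 (Kcnt2, SE 0.048). The median over the members was −0.017, beside 0.005 over single-gene probesets.

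The proteins that work with these channels gave no call. Of 40 listed partner genes (auxiliary and clustering proteins, G proteins and their regulators) 38 were measured, and of 15 pump and cotransporter genes that set the potassium gradient 10 were measured. None of the 48 was called in any comparison by limma. An unadjusted p under 0.05 was reached by 5 of them between maternal and virgin mice, beside 10.4% of all probesets. It was reached by 7 between maternal and pups removed mice (8.96% of all probesets) and by 1 between pups removed and virgin mice (8.13%). Rgs8, which speeds the closing of G protein-gated inward rectifiers, had log2 differences of −0.21 in maternal against virgin (unadjusted p = 0.00838) and −0.19 in maternal against pups removed mice (unadjusted p = 0.0184) in the limma fit. Tmem175, a potassium channel of endosomes and lysosomes, had −0.13 (unadjusted p = 0.00912) and −0.115 (unadjusted p = 0.0214). The mean log2 signal of the 38 partner genes was 10.476, 10.471 and 10.473 in virgin, maternal and pups removed mice, and that of the 10 pump and cotransporter genes was 10.509, 10.481 and 10.514.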

How the data were processed

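RNA of 18 microdissected lateral septa (6 virgin, 6 maternal and 6 pups removed mice) was hybridized to Affymetrix Mouse Gene 1.0 ST arrays, 1 mouse per array, by the authors. The authors deposited log2 signals per probeset, made with Affymetrix Power Tools 1.12.0 by PLIER with a background correction by GC bin. A method of normalization between arrays is not given in the sources used here. Array medians ran from 7.61 to 7.70 and values from 2.33 to 14.72. The values were used as deposited. Signal over background sets their precision, and no detection calls were used here. Of the members with an unadjusted p under 0.05, some had a mean over 18 arrays below every array median. These were Kcnk5 (6.401), Kcnk18 (6.734), Kcnj2 (7.062), Kcna7 (7.179) and Kcns2 (7.431).

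Groups came from the sample labels. A model with 3 group means was fitted over all 35557 probesets with limma 3.58.1 in R 4.3.3 (15 residual and 2.62 prior degrees of freedom), with Benjamini-Hochberg adjustment over all probesets and a probeset was called where its adjusted p was under 0.25, the threshold of the study. The study's own fit passed more probesets at this threshold, with Kcna6 and Kcnab1 among them, which were not called here. The study reports altered expression of 15 genes related to potassium channels, where 5 members were called here. In its ion channel cluster, about as many potassium channel genes were higher as lower in maternal mice. Of the members called here, 1 was higher and 4 were lower. Which of the study's other genes are members was not compared here. The fit made here was tested on simulated data. Summaries used Python 3.11.15, pandas 2.3.3, numpy 2.4.6 and scipy 1.17.1, and permutation tests drew 100000 resamples within groups. Gene names are those of the platform annotation, and promoters and neighbouring genes are from RefSeq, GRCm38.p6. The named genes are those called, those with an unadjusted p under 0.05 or groups that do not overlap in any comparison, and the 2 with the smallest standard error per family, with other members given for contrast after their values were seen. The members and lists were chosen with earlier results of these data known. The authors prepared RNA in sets of 1 sample per group, but the labels do not say that a replicate number marks such a set, and the numbers were not taken as pairs. Over 18 same-numbered pairs the correlation of deviations from the group mean ran from −0.248 to 0.095. Alternatives were a replicate block, quantile normalization, subtraction of array medians, the mean of a gene's probesets, only the probesets at or above the median brightness, trend and robust moderation, array weights, only the 2 groups compared, stricter thresholds, and each array left out.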

Additional observations from a re-analysis of the deposited data

Results flagged for a closer look

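In 3 of 87 groups of 6 arrays, taken over the 29 members with an unadjusted p under 0.05, 1 array lay far from the other 5 of its group; about 5% of groups would be so by chance. Kcnk9 read 10.14 in pups removed replicate 4, where the next highest array of the group read 9.75 and the lowest 9.59. This is the array with the lowest striatal marker mean of its group. Kcnh7 read 8.53 in virgin replicate 6, with the other virgin arrays between 8.41 and 8.45. Kcnk13 read 7.78 in pups removed replicate 2, with the others between 7.60 and 7.66.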

How the results depend on the processing

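No log2 difference of a member with an unadjusted p under 0.05 changed direction under any alternative, and the medians over the members moved by less than the spread between arrays. The number of calls moved more. In maternal against virgin mice the 5 calls became 13 over the probesets at or above the median brightness, where 61 of the members were measured and fewer probesets share the adjustment, and 9 with only the 2 groups compared. They were 0 at adjusted p under 0.05 and 0 at under 0.10. With each array left out in turn they ranged from 0 to 9. In maternal against pups removed mice the 0 calls became 1 over these brighter probesets and 5 with array weights, and 0 to 8 with each array left out. The totals called in this comparison, with each array left out or with only the 2 groups compared are not given here. Pups removed against virgin mice gave 0 throughout. The replicate block gave 5, 0 and 0 calls in the 3 comparisons, with 3 of the 5 genes shared (Kcnd2, Kcnj4 and Kcnt2), Kcnh3 and Kcnv1 gained and Kcne1l and Kcnip3 lost, and 1 of 18 arrays correlated best with its own number. Over 26 alternatives for maternal against virgin mice, Kcnt2 lost its call in 4 and Kcnj4 in 5, all of them with 1 array left out, Kcnd2 in 8, Kcne1l in 9 and Kcnip3 in 16. Their limma adjusted p-values ran from 0.0748 to 0.34 for Kcnt2, from 0.0953 to 0.34 for Kcnj4, from 0.112 to 0.383 for Kcnd2, from 0.0996 to 0.355 for Kcne1l and from 0.136 to 0.428 for Kcnip3.

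Of the partner, pump and cotransporter genes, none called as given above, 1 was called in maternal against virgin mice with array medians subtracted, 2 over the brighter probesets and 1 with only the 2 groups compared, and 0 to 1 with each array left out in both maternal comparisons, alternatives chosen after seeing the data. The correlation with striatal markers without the 2 farthest arrays, also chosen so, was 0.702 for Kcnj4, −0.602 for Kcnt2, 0.562 for Kcnip3 and 0.542 for Kcne1l, each with an adjusted permutation p of 0.0735. The cause of these changes was not tested except where stated.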

Other observations

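Members that lie next to each other in the genome (GRCm38.p6) had these values in maternal against virgin mice. Kcna5, Kcna1 and Kcna6, which are neighbours, had log2 differences of −0.112 (SE 0.055), −0.047 (SE 0.033) and 0.168 (SE 0.052). The neighbours Kcna3, Kcna2 and Kcna10 had −0.025, 0.073 and 0.063. Kcnj16 and Kcnj2, inward rectifiers that lie side by side, had −0.168 (SE 0.146) and −0.305 (SE 0.120), and Kcnj6 and Kcnj15 had 0.160 (SE 0.057) and 0.003 (SE 0.056). Kcnk5 and Kcnk16 had −0.090 (SE 0.065) and −0.022 (SE 0.055), and Kcnip1 and Kcnmb1, which overlap, had −0.033 (SE 0.060) and −0.463 (SE 0.191). Kcnj9 and Kcnj10 had 0.025 (SE 0.054) and a difference of 0 to the precision of the fit (SE 0.049), and Kcnj5 and Kcnj1 had 0.020 (SE 0.055) and −0.008 (SE 0.081). None of these genes was called, and the differences between neighbours were not tested.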
